A study of Mus musculus with 6 samples.

Results

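The 9 genes that the literature ties to EGR1 or to tendon were followed in the inguinal subcutaneous white adipose tissue (SC-WAT) of mice with and without *Egr1*. They are the growth factor genes *Pdgfa* and *Pdgfb*, the coagulation gene *F3*, the phosphatase genes *Dusp1*, *Dusp4* and *Dusp5*, and the tendon genes *Scx*, *Mkx* and *Tnmd*. These 9 genes, of 47069 in the count files, were listed by name and not by a threshold on any value. RNA was sequenced from 3 Egr1+/+ and 3 Egr1-/- female mice of 2 weeks of age, all labelled C57BL/6 (the line was kept on C57BL/6 J), with 1 library per mouse. The labels give no treatment. In the Egr1-/- line the gene was inactivated in the germline, in every cell type, by a LacZ insertion in the leader of the transcript and a frameshift ahead of the DNA-binding domain. The mice came from 4 litters, and 1 mouse of each genotype shared a litter.

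EGR1 is a zinc finger transcription factor that binds GC-rich DNA and is made within minutes of growth factor, stress or mechanical signals. The PDGF chains, tissue factor and several phosphatases of the MAP kinase pathway are among the genes it has been reported to regulate in vessel wall and other cells, and in tendon it has been placed with Scleraxis and Mohawk among the regulators of matrix genes. Several of these genes are expressed by only some cells of fat, such as endothelial cells, mural cells and fibroblasts. In whole tissue, fewer cells of a type and less RNA per cell cannot be told apart.

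No difference between the genotypes was detected for any of the 9 genes after filtering on low counts. Two-sided tests were possible for 7 genes and gave 0 under an adjusted p of 0.05 (edgeR quasi-likelihood, Benjamini-Hochberg over 17667 genes), a limit that 0.017% of those genes passed. At an unadjusted p under 0.05 the count was also 0 of 7, against 10.7% of all tested genes (5.6% lower in Egr1-/- mice), and in DESeq2 none of the 6 genes given an adjusted p had one under 0.05, as 2.05% of all genes had. The genotypes overlapped in each of the 9 genes. Complete separation of the genotypes was seen in 8.1% of all tested genes with the Egr1-/- mice below and in 8.15% with them above. With 7 genes tested, these background shares are too low for a count of 0 to set the 9 genes apart from other genes. *Scx* and *Tnmd* had too few counts for the test. The median log2 fold change (Egr1-/- against Egr1+/+) of the 7 genes was -0.0248, with 4 lower and 3 higher, beside 0.0011 over all genes tested.

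The libraries held between 29661984 and 42357981 counts on genes, of which 49.97% to 66.26% were on mitochondrial genes. Egr1-/- mouse 1 had both the largest total and the highest mitochondrial share. Its TMM factor was 0.7874, beside 0.9825 to 1.1704 in the other mice. *Egr1* itself had counts of 353, 241 and 711 in Egr1+/+ mice against 103, 84 and 57 in Egr1-/- mice, or 10.3, 8.02 and 16.5 CPM (counts scaled to library size by TMM) against 3.09, 2.71 and 1.84 CPM, and the files do not say on which part of the gene these counts lie. It gave -2.19 on the log2 scale (Egr1-/- against Egr1+/+, SE 0.299, edgeR adjusted p = 0.0879), with no overlap between the genotypes, and DESeq2 gave an adjusted p of 1.861e-10. Adipocyte markers, *Adipoq* and *Plin1* among the 8, were abundant in every mouse, with a summed level of 6998 to 7893 CPM in Egr1+/+ mice and 5516 to 6435 CPM in Egr1-/- mice.

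**Figure D1:**
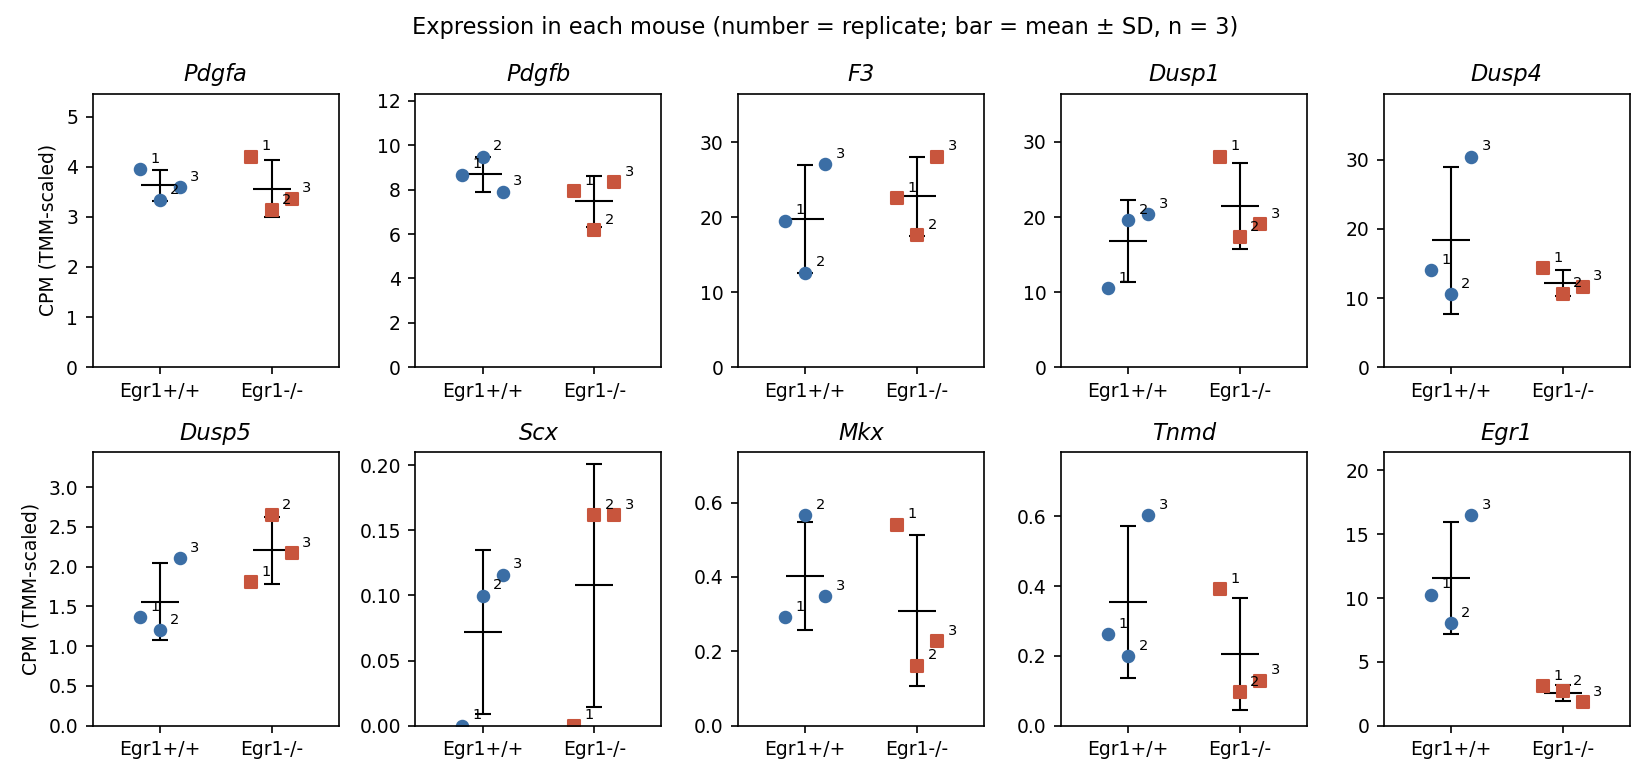
Expression of the 9 genes and of *Egr1* in each mouse, in CPM on TMM-scaled libraries (vertical axes, linear from 0), for Egr1+/+ (blue circles) and Egr1-/- mice (red squares); numbers are replicates, and bars are the mean ± SD of 3 mice. The genotypes are apart for *Egr1* and overlap for each of the other 9 genes, and Egr1+/+ mouse 3 stands highest for *Dusp4* at 30.5 CPM.

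The promoters were examined first for the letters that EGR1 prefers. The RefSeq promoter table (build GRCm38.p6, 250 bases before to 50 bases after a start) held 6 promoters for 5 of the 9 genes, namely *F3*, *Pdgfa* with 2 starts, *Dusp1*, *Dusp5* and *Tnmd*. The EGR motif GCGNGGGCG, searched on both strands, was in 0 of the 6, and in 5.55% of all 32851 promoters of that length. The shorter core GTGGGCG was searched along with the GC box, the cyclic AMP response element and the CArG box. These searches were added after these promoters had been looked at, also on both strands. The core was found in *F3* only among the 6, at positions -91 and -57 from the start, and in 7.97% of all promoters. Each of these matches shared bases with a GC box, GGGCGG, a motif that 35.7% of all promoters hold. Among the 9690 promoters richest in GC, with at least 60% as in *F3*, the shares were 16.6% for the EGR motif, 18.1% for the core and 80.6% for the GC box. A match is a run of letters, not a bound site.

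The RefSeq start of *Dusp1* lies inside the longer gene model whose coordinates are given with its values. The *F3* promoter is shown for its pair of EGR cores and the *Dusp1* and *Dusp5* promoters for motifs of other factors that respond to signals. Capitals mark GTGGGCG on either strand in *F3*, the cyclic AMP response element TGACGTCA in *Dusp1*, which 1.79% of all promoters hold, and a pair of adjoining CArG boxes, the element bound by serum response factor, in *Dusp5*, which 1.63% of all promoters hold at least 1 of.
F3, chr3:121723287-121723586, plus strand: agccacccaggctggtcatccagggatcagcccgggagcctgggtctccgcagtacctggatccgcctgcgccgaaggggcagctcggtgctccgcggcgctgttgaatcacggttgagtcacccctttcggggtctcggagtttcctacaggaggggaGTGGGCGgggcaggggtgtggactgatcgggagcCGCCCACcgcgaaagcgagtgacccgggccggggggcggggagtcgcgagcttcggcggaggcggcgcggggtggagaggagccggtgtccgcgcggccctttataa
Dusp1, chr17:26508423-26508722, minus strand: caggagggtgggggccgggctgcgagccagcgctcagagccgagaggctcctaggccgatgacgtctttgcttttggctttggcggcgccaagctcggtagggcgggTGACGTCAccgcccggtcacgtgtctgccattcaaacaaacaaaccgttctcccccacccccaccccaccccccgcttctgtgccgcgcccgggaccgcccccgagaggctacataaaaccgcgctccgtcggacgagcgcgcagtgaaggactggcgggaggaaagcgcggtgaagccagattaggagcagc
Dusp5, chr19:53528895-53529194, plus strand: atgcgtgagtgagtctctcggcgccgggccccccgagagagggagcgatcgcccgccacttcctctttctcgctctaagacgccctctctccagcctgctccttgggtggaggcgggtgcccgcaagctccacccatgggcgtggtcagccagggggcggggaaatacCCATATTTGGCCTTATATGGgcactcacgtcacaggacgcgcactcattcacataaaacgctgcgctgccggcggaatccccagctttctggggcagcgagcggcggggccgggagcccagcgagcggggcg
The 3 windows are rich in G and C, at 70.3%, 67% and 66.7% of their bases. The *Tnmd* window stood apart at 40% and held none of the motifs searched. Both *Pdgfa* windows, at 67% and 73.3%, held GC boxes and no EGR core.

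**Figure D2:**
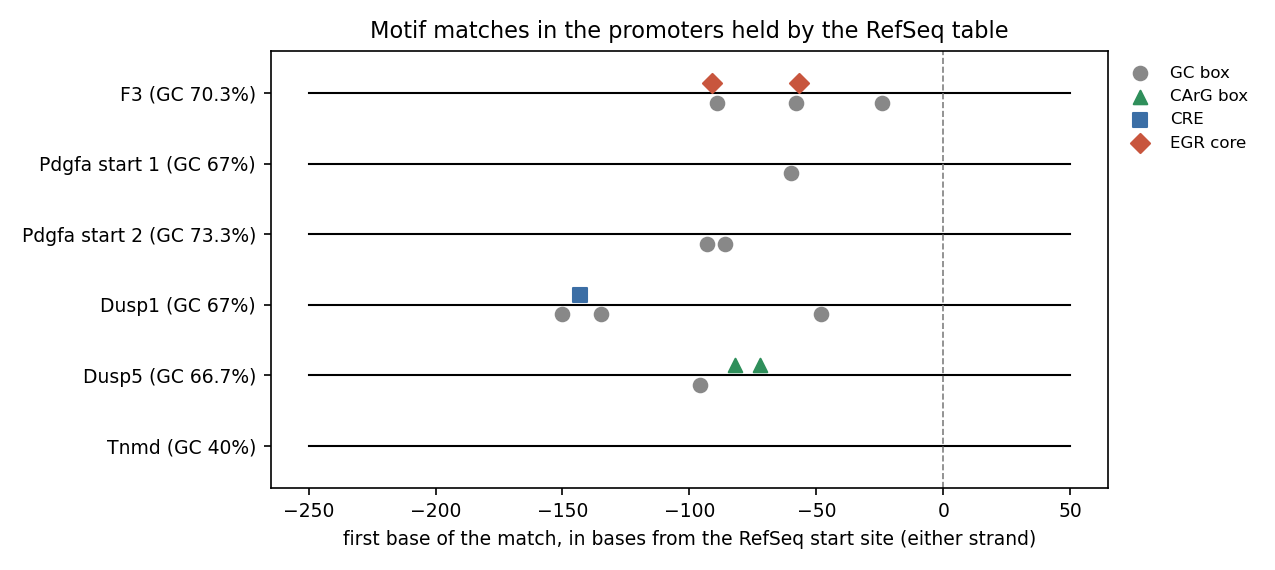
Motif matches on either strand in the 6 RefSeq promoters of 5 genes, by distance of the match's first base from the start site (horizontal axis, in bases). EGR cores lie at -91 and -57 in *F3*, each beside a GC box, whereas *Dusp5* carries CArG boxes at -82 and -72 and *Tnmd* has no match.

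Per length of exon the 9 genes covered a wide range of expression. In Egr1+/+ mice the order of mean RPKM, which is CPM per kilobase of exon, was *F3* at 7.81 ± 2.86 (SD, n = 3), *Dusp4* at 6.70 ± 3.88, *Dusp1* at 5.08 ± 1.64, *Pdgfb* at 2.09 ± 0.190, *Pdgfa* at 1.16 ± 0.101, *Dusp5* at 0.631 ± 0.196, *Tnmd* at 0.262 ± 0.161, *Mkx* at 0.0981 ± 0.0354 and *Scx* at 0.0359 ± 0.0313. The first 3 overlapped in their ranges and could not be ordered. From *Pdgfb* down, each gene was above the next in every Egr1+/+ mouse, and *Dusp1* was above *Pdgfb* in each of them. Among the last 3 genes this order rests on few counts and on exon length. *Tnmd* had counts of 9, 6 and 26 over 1353 exonic bases, and *Mkx* had 10, 17 and 15 over 4095. The median over 14364 tested protein-coding genes was 2.197 RPKM, so that *F3* lay above 83.63% of them and *Scx* above 0.1532%. *Scx* failed the low-count filter that these genes passed, so its share is not a rank among all protein-coding genes.

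*Pdgfa* and *Pdgfb* encode the A and B chains of platelet-derived growth factor, which signals to fibroblasts and mural cells. *Pdgfa* (ENSMUSG00000025856.15; GRCm38 chromosome 5, 138976014 to 138997370, minus strand) had counts of 136, 100 and 155 in Egr1+/+ mice against 140, 97 and 104 in Egr1-/- mice. At 3.96, 3.33 and 3.60 CPM against 4.20, 3.13 and 3.36 CPM, Egr1-/- mouse 1 lay above the Egr1+/+ range, mouse 2 below it and mouse 3 within it. The fold change was 0.983, with a 95% interval from 0.723 to 1.34 (edgeR adjusted p = 0.978). The antisense gene 6330403L08Rik shares 813 exonic bases with *Pdgfa*, and since no strand setting of the counting is given, reads of this stretch cannot be assigned to either with certainty. That gene had a fold change of 1.10 (edgeR adjusted p = 0.869).

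*Pdgfb* (ENSMUSG00000000489.6; chromosome 15, 79995874 to 80014977, minus strand), the chain with which endothelial cells recruit pericytes, had 8.67, 9.49 and 7.91 CPM in Egr1+/+ mice against 7.92, 6.17 and 8.34 CPM in Egr1-/- mice. Egr1-/- mouse 2 lay below the Egr1+/+ range and Egr1-/- mice 1 and 3 lay within it. The fold change was 0.861 (95% interval 0.666 to 1.11, edgeR adjusted p = 0.706). The summed level of 8 endothelial markers overlapped between the genotypes, at 414.8 to 507.1 CPM in Egr1+/+ mice and 379.2 to 568.5 CPM in Egr1-/- mice.

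Among the other 5 PDGF ligands and receptors, 2 had an unadjusted p under 0.05 and 0 an adjusted one, both lower in every Egr1-/- mouse. Over all tested genes, 10.7% had such an unadjusted p and 8.1% were lower in every Egr1-/- mouse. *Pdgfra*, the receptor that marks fibroblasts and adipocyte progenitors, had 93.2, 91.5 and 106 CPM in Egr1+/+ mice against 79.1, 61.2 and 68.8 CPM in Egr1-/- mice (-0.48 on the log2 scale, SE 0.131, edgeR adjusted p = 0.250). *Pdgfrl*, a receptor-like gene at a much lower level, gave -0.75 (SE 0.258, edgeR adjusted p = 0.332). *Pdgfrb*, the receptor of mural cells, had 42.5 ± 1.57 CPM (SD, n = 3) against 39.8 ± 5.22 CPM (SD, n = 3), with overlap. The summed fibroblast and progenitor markers, *Pdgfra* among them, were also lower, from 4154 to 4946 CPM in Egr1+/+ mice to 2494 to 3446 CPM in Egr1-/- mice. Of these 8 markers, 8 were lower at an unadjusted p under 0.05, of which 0 passed the adjusted threshold in edgeR and 5 did in DESeq2, and their part in the receptor levels was not tested.

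*F3* (ENSMUSG00000028128.13; chromosome 3, 121723537 to 121735048, plus strand) encodes tissue factor, the membrane protein that starts coagulation by binding factor VII. Its levels were 19.6, 12.6 and 27.0 CPM in Egr1+/+ mice against 22.6, 17.7 and 28.1 CPM in Egr1-/- mice. The ranges overlapped, with the lowest value in Egr1+/+ mouse 2, and the spread within each exceeded the distance between their means. The fold change was 1.15 (95% interval 0.762 to 1.74, edgeR adjusted p = 0.839). Leaving out Egr1+/+ mouse 2 moved the log2 fold change from 0.20 to -0.0335, and leaving out Egr1+/+ mouse 3 moved it to 0.50.

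Of 12 genes of the tissue factor pathway, *F7* and *F2* were too low for the test, as was *F2rl2*, and 8 were tested beside *F3*. Of the 8, 3 genes had an unadjusted p under 0.05, beside 10.7% of all tested genes, and 0 passed the adjusted threshold. All 3 had lower means in Egr1-/- mice, though *Tfpi* overlapped between the genotypes. They were *Thbd*, encoding the endothelial anticoagulant thrombomodulin, with 25.8, 25 and 25.8 CPM against 23.1, 15.1 and 18.7 CPM (edgeR adjusted p = 0.360), *Tfpi*, which encodes the inhibitor of tissue factor (log2 fold change -0.42, edgeR adjusted p = 0.376), and its paralog *Tfpi2* (log2 fold change -0.97 at about 1 CPM, edgeR adjusted p = 0.421). The median log2 fold change of the 8 genes was -0.36.

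DUSP1, DUSP4 and DUSP5 are nuclear phosphatases that switch off MAP kinases, and their genes are induced by the same signals that induce *Egr1*. *Dusp1* (ENSMUSG00000024190.6; chromosome 17, 26505590 to 26562128, minus strand) had 10.6, 19.5 and 20.3 CPM in Egr1+/+ mice against 28.0, 17.4 and 19.1 CPM in Egr1-/- mice. Egr1+/+ mouse 1 was the lowest and Egr1-/- mouse 1 the highest, and the other 4 mice lay close together. Without the former the log2 fold change moved from 0.35 to 0.09, and without the latter to 0.12. The fold change was 1.28 (95% interval 0.849 to 1.92, edgeR adjusted p = 0.700). *Dusp1* shares 11 exonic bases with *Ergic1* on the opposite strand.

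*Dusp4* (ENSMUSG00000031530.6; chromosome 8, 34807297 to 34819894, plus strand) had the lowest fold change of the 7 tested genes, 0.662 (95% interval 0.389 to 1.13, edgeR adjusted p = 0.591). A single mouse carried that difference. Its counts were 484, 317 and 1313 in Egr1+/+ mice against 477, 330 and 360 in Egr1-/- mice, or 14.1, 10.6 and 30.5 CPM against 14.3, 10.7 and 11.6 CPM. All Egr1-/- mice lay within the range of the Egr1+/+ mice. Without Egr1+/+ mouse 3 the log2 fold change moved from -0.59 to -0.0175 (edgeR adjusted p = 0.990), and without Egr1+/+ mouse 2 it was -0.87 (edgeR adjusted p = 0.338). With genes of low counts kept in the fit *Dusp4* passed the threshold, at the same log2 fold change of -0.59 (edgeR adjusted p = 0.0344). In that fit 552 of 38261 genes passed.

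*Dusp5* (ENSMUSG00000034765.6; chromosome 19, 53529109 to 53542431, plus strand), which encodes an ERK-specific phosphatase, had counts of 47, 36 and 91 in Egr1+/+ mice against 60, 82 and 67 in Egr1-/- mice. In CPM these were 1.37, 1.199 and 2.11 against 1.80, 2.65 and 2.17. Egr1-/- mice 2 and 3 were above all Egr1+/+ mice and Egr1-/- mouse 1 was not. The fold change was 1.404 (95% interval 0.881 to 2.24, edgeR adjusted p = 0.616). The antisense gene AC137853.2 shares 547 exonic bases with *Dusp5* and was not analysed here. Again, Egr1+/+ mouse 3 was the highest of its genotype, and without it the log2 fold change moved from 0.49 to 0.77 (edgeR adjusted p = 0.638).

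Egr1+/+ mouse 3 had the highest *Egr1* of all mice, 16.5 CPM, and the highest *Dusp4*. *Fos*, an AP-1 subunit gene chosen after its values were seen, was also highest in this mouse. It had 6.84 CPM there, against 1.601 to 4.295 CPM in the other 5 mice. Of the 10 immediate early genes listed further below, *Fos* alone was highest in this mouse. *Jun*, for example, had 24.9 CPM in it and 29.9 CPM in Egr1-/- mouse 1, and *Fosb* had 1.485 and 1.681 CPM. *Egr2*, a paralog of *Egr1*, was 3.99 CPM in that mouse and 2.097 to 3.93 CPM in the others, so that it was hardly set apart. What these values have in common was not tested.

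**Figure D3:**
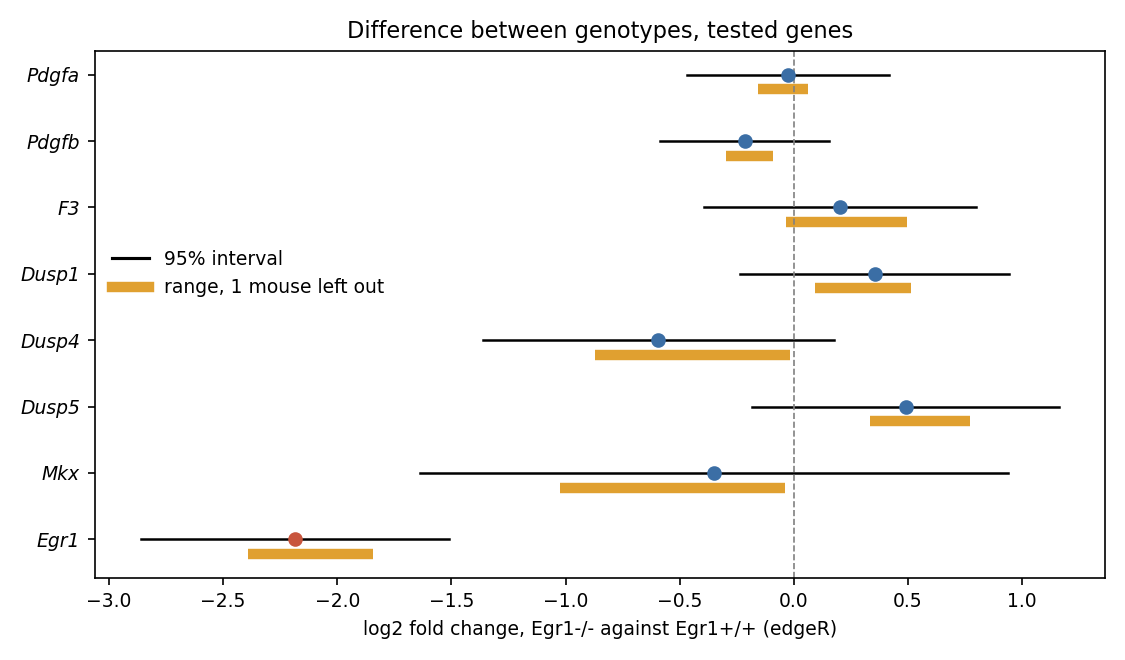
Log2 fold change (Egr1-/- against Egr1+/+, horizontal axis) of the 7 tested genes and of *Egr1* in edgeR's quasi-likelihood fit; black lines are 95% intervals and orange bars the range when any 1 of the 6 mice is omitted. All 7 intervals include 0 and that of *Egr1*, from -2.86 to -1.51, does not; the orange bar of *Dusp4* reaches from -0.87 to -0.0175.

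The remaining MAP kinase phosphatases gave 1 gene of 7 at an unadjusted p under 0.05, beside 10.7% of all tested genes, and 0 past the adjusted threshold. That gene was *Dusp10*, whose product acts on JNK and p38, with 13.7, 15.1 and 18.9 CPM in Egr1+/+ mice against 21.97, 21.2 and 28.0 CPM in Egr1-/- mice (0.58 on the log2 scale, SE 0.161, edgeR adjusted p = 0.256). *Dusp16* and *Dusp2*, the next by p, overlapped between genotypes, with log2 fold changes of 0.17 and 0.51. In the feedback genes of the ERK pathway, 1 of 11 tested genes had an unadjusted p under 0.05, the Sprouty gene *Spry4* (log2 fold change -0.46, edgeR adjusted p = 0.412). It was followed by *Spred1*, an inhibitor of the same pathway, at -0.22 and *Ier3* at 0.45. The median log2 fold change was 0.09 over the 7 phosphatases and -0.12 over the 11 feedback genes.

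Of 10 immediate early genes, the class to which *Egr1* belongs, 3 had an unadjusted p under 0.05, beside 10.7% of all tested genes. All 3 were higher in every Egr1-/- mouse, as were 8.15% of all tested genes, and 0 passed the adjusted threshold. *Klf2*, encoding a factor of quiescent endothelium, had 14.5, 16.9 and 13.96 CPM in Egr1+/+ mice against 20.0, 25.95 and 19.4 CPM in Egr1-/- mice (edgeR adjusted p = 0.256). *Junb*, an AP-1 subunit, and *Nr4a1*, an orphan nuclear receptor, had log2 fold changes of 0.52 and 0.49. The median of the 10 genes was 0.11.

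The tendon genes were near the floor of detection. *Scx* (ENSMUSG00000034161.7; chromosome 15, 76457452 to 76459458, plus strand) encodes Scleraxis, the basic helix-loop-helix factor that marks tendon progenitors. It had counts of 0, 3 and 5 in Egr1+/+ mice against 0, 5 and 5 in Egr1-/- mice. A count of 0 allows up to 3 counts, or 0.0873 CPM in Egr1+/+ mouse 1 and 0.0901 CPM in Egr1-/- mouse 1, so that 8 counts in one genotype and 10 in the other gave no usable comparison. *Scx* lies inside *Bop1*, a ribosome biogenesis gene on the opposite strand, with 0 exonic bases in common. *Bop1* had 224 to 268 counts in the Egr1+/+ mice and 257 to 296 counts in the Egr1-/- mice. Its fold change was 1.27 (edgeR adjusted p = 0.473), and its CPM were higher in every Egr1-/- mouse. Whether unspliced *Bop1* reads entered the *Scx* counts was not tested.

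*Mkx* (ENSMUSG00000061013.5; chromosome 18, 6934518 to 7004780, minus strand) encodes Mohawk, a homeodomain factor of tendon cells. It had counts of 10, 17 and 15 in Egr1+/+ mice against 18, 5 and 7 in Egr1-/- mice. In CPM, Egr1-/- mice 2 and 3 were the lowest of all and Egr1-/- mouse 1 was second highest. A gene on the same strand, AC148004.2, shares 201 exonic bases with *Mkx*. The fold change of 0.784 had a wide 95% interval, from 0.321 to 1.91 (edgeR adjusted p = 0.872), and its log2 value lay between -1.02 and -0.041 when single mice were omitted.

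*Tnmd* (ENSMUSG00000031250.8; chromosome X, 133850980 to 133865577, plus strand) encodes tenomodulin, a membrane glycoprotein of mature tendon cells that is also known from adipose tissue. It had counts of 9, 6 and 26 in Egr1+/+ mice against 13, 3 and 4 in Egr1-/- mice, and failed the filter on low counts. Of the 41 counts in Egr1+/+ mice, 26 came from mouse 3, and Egr1-/- mouse 1 lay above Egr1+/+ mice 1 and 2. Without the filter its log2 fold change was -0.79 (standard error 0.718, edgeR adjusted p = 0.837). Skeletal muscle, a tissue that borders on tendon, was present in uneven amounts, with summed levels of 8 muscle markers of 1179, 3452 and 233.6 CPM in Egr1+/+ mice against 123, 365.3 and 2754 CPM in Egr1-/- mice. Its part in the *Tnmd* counts was not tested.

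Of 16 genes listed for tendon, 9 were tested beside *Mkx*. At an unadjusted p under 0.05 there were 2 of them, with 0 after adjustment, *Tnc* for the matrix protein tenascin C, with 22, 20.3 and 20.0 CPM in Egr1+/+ mice against 9.64, 16.5 and 15.3 CPM in Egr1-/- mice (-0.59 on the log2 scale, SE 0.188, edgeR adjusted p = 0.305), and *Bgn* for biglycan, a small proteoglycan (log2 fold change -0.34, edgeR adjusted p = 0.432). *Prg4*, which encodes lubricin, followed with a log2 fold change of 1.09 at about 1 CPM (edgeR adjusted p = 0.487). The median of the 9 was 0.02, and 10.7% of all tested genes had an unadjusted p under 0.05. Of 11 listed relatives and partners of Scleraxis, Mohawk and tenomodulin, *Cnmd*, the relative of tenomodulin, had too few counts for the test. It had counts of 3, 9 and 6 in Egr1+/+ mice against 0, 1 and 2 in Egr1-/- mice. The other 10 genes gave 0 at an unadjusted p under 0.05. The lowest p among them was that of *Twist1*, another basic helix-loop-helix gene of mesenchyme, at 6.69, 6.73 and 7.45 CPM against 5.46, 5.29 and 5.98 CPM (log2 fold change -0.32, edgeR adjusted p = 0.491), ahead of *Tcf12* at 0.14 and *Tcf15* at -0.17.

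A further 20 genes that the literature names as targets of EGR1 were set beside the 9. Of the 19 tested, 3 had an unadjusted p under 0.05, beside 10.7% of all tested genes, and 0 passed after adjustment in edgeR. *Fgf2*, which encodes basic fibroblast growth factor, had 31.7, 33.9 and 41.5 CPM in Egr1+/+ mice against 24.8, 24.8 and 17.98 CPM in Egr1-/- mice (-0.67 on the log2 scale, SE 0.160, edgeR adjusted p = 0.220). *Mmp14*, encoding a membrane-bound collagenase, had 55.9, 42.7 and 52.3 CPM against 38.3, 30.7 and 34.7 CPM (-0.54 on the log2 scale, SE 0.138, edgeR adjusted p = 0.227). Both were lower in every Egr1-/- mouse, and these 2 passed in DESeq2, with adjusted p-values of 0.0186 and 0.0459. *Icam1*, a leukocyte adhesion molecule, was the third, at 0.31 on the log2 scale. Summed markers of several cell types were also lower in every Egr1-/- mouse, those of fibroblasts and adipocytes as given above, those of macrophages at 270.6 to 327.5 CPM against 341.2 to 490.7 CPM in Egr1+/+ mice and those of Schwann cells at 222.2 to 296.6 CPM against 328.1 to 457.1 CPM. Of the 8 adipocyte markers, 6 were lower and 2 higher, among these *Lipe*, which was higher in every Egr1-/- mouse. Of the 8 Schwann cell markers, 7 were lower and 1, *S100b*, was higher. The mural sum overlapped, at 535.2 to 743.8 CPM in Egr1+/+ mice and 452 to 646.6 CPM in Egr1-/- mice, as did the endothelial sum. The part of these cell types in *Fgf2* and *Mmp14* was not tested.

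Over all 8 groups of related genes, 15 of 79 tested genes had an unadjusted p under 0.05, 5 higher and 10 lower in Egr1-/- mice, or 18.99% where all tested genes gave 10.7%. The count was 9 without Egr1+/+ mouse 3, where 7.58% of all genes passed, and 9 without Egr1-/- mouse 2, where 9.01% passed. These groups were chosen with earlier results of these data known. The median log2 fold change of the 79 genes was -0.0815.

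**Figure D4:**
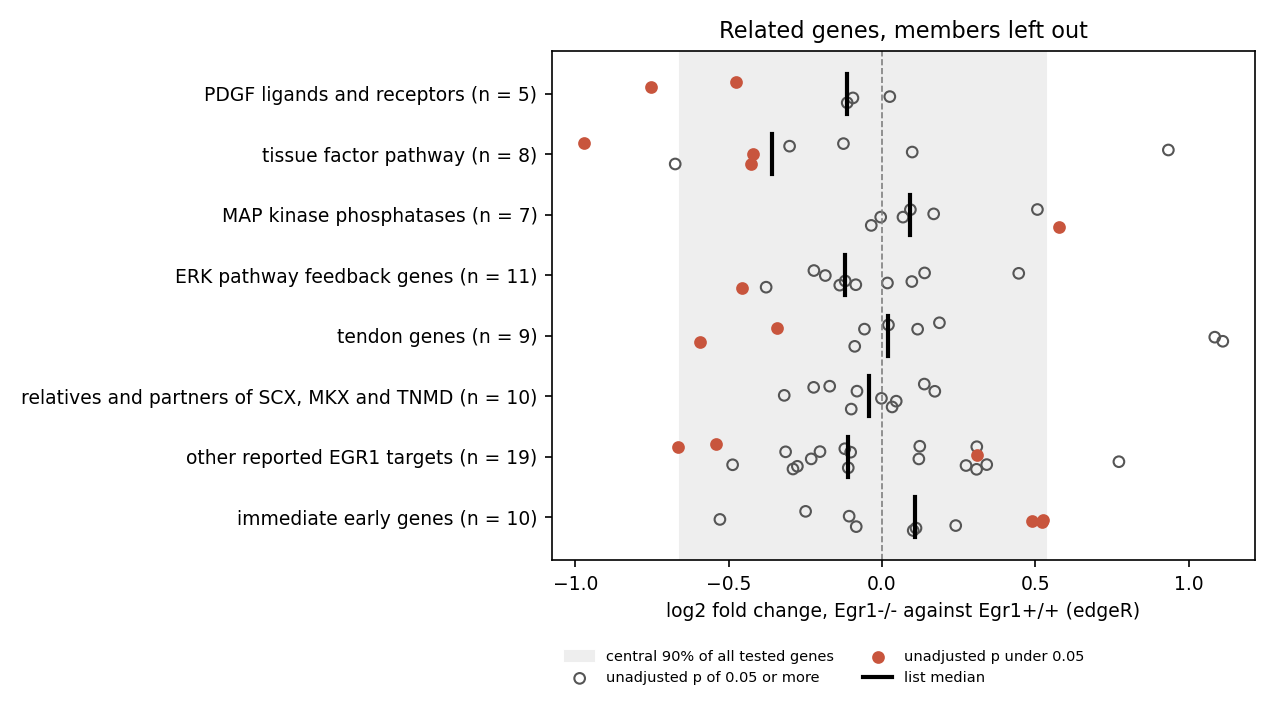
Log2 fold change (Egr1-/- against Egr1+/+, horizontal axis) of 79 tested genes in 8 groups related to the 9 genes, which are left out; red points have an unadjusted p under 0.05, black bars are group medians and the grey band holds the central 90% of all tested genes. Medians range from -0.36 in the tissue factor pathway to 0.11 in the immediate early genes, and 15 points are red.

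Correlations among the 7 tested genes were mixed in sign. Over the 6 mice, which share depth and composition effects within a library, Pearson's r of log2 CPM between pairs of the 7 tested genes ran from -0.8573 for *Pdgfb* and *Dusp5* to 0.6802 for *Pdgfb* and *Mkx*, given here as a description. For each tested gene the most similar of 12626 other protein-coding genes, a search that yields high values with so few mice, had an r above 0.97. *Dusp1* was followed most closely by *Apold1* (r = 0.986), an immediate early gene of endothelium, and by *Depp1* (r = 0.976). *Pdgfb* was followed by *Fabp4* (r = 0.994), the fatty acid binding protein of adipocytes and capillaries, and *Cetn4* (r = 0.990). *Pdgfa* was followed by *Heyl* (r = 0.984), a Notch target, and *Ehd2* (r = 0.981), a caveolar protein. The closest to *F3* was *Slc44a3* (r = 0.990), a gene on the opposite strand whose start lies 191132 bases before *F3* on chromosome 3. The next was *Akap7* (r = 0.988). *Dusp4* was followed by *Vps53* (r = 0.993) and *Trip6* (r = 0.990), *Dusp5* by *Atp1a4* (r = 0.991) and *Adpgk* (r = 0.984), and *Mkx* by *Dennd5a* (r = 0.987) and *C5ar1* (r = 0.985).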

How the data were processed

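Total RNA of inguinal SC-WAT from 3 Egr1+/+ and 3 Egr1-/- mice was depleted of ribosomal RNA and made into strand-specific libraries. The authors mapped the reads to GRCm38 with TopHat and Bowtie and assigned them to genes with featureCounts, whose strand and multimapping settings are not given in the sources used here, and deposited raw counts per gene. Groups were taken from the sample titles. Gene names, coordinates and exon lengths came from GENCODE M21 by identifier without version, which matched 46574 of 47069 genes. The authors named an earlier annotation release, so the exon lengths and overlaps given here may differ from the gene models counted.

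The main test was that of edgeR 4.0.16 under R 4.3.3 (TMM, filterByExpr, quasi-likelihood test, two-sided), with Benjamini-Hochberg adjustment over all 17667 genes tested at 0.05. CPM are relative to TMM-scaled libraries, and RPKM divide them by the union of exons. Standard errors are the log2 fold change over the root of F, and 95% intervals use the test's degrees of freedom. DESeq2 1.42.0 and limma 3.58.1 served as alternatives. Exact permutation tests of 3 mice against 3 cannot give a p below 0.1 and gave at least 0.2 for each of the 9 genes. The fits were tested on simulated data, with changes placed only in genes above a level that *Pdgfa*, *Dusp5* and *Mkx* did not reach. Those changes were larger than any seen in the 7 tested genes, so the simulation does not cover differences of their size. Totals were 29661984 to 42357981 counts, and a floor of 3 counts covers counting error only.

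The members and lists were chosen with earlier results of these data known. From each list the 3 tested genes with the lowest p are named, and for each tested member the 2 most correlated genes of at least 1 CPM (log2 CPM, prior count 2). P-values measure the spread between mice, some of which shared litters.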

Additional observations from a re-analysis of the deposited data

How the results depend on the processing

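Of the 9 genes, 0 passed the adjusted threshold in 15 of 16 alternatives. When low counts were kept, 552 of the 38261 genes tested passed. Of the 9 genes, 1 was among them, *Dusp4* (log2 fold change -0.59, edgeR adjusted p = 0.0344). Its levels, with Egr1+/+ mouse 3 alone high, are those given above. Over all alternatives, the adjusted p of *Dusp4* ran from 0.0344 to 0.9998. At an unadjusted p under 0.05 there were 2 of the 9 without the filter (*Dusp1* and *Dusp4*), where 7.49% of all genes passed. With total-count scaling there was 1 (*Dusp4*), where 8.89% of all genes passed. With each mouse left out there were 0 to 1. These were *Dusp4* without Egr1+/+ mouse 2, where 11% of all genes passed, and *Dusp5* without Egr1+/+ mouse 3, where 7.58% did. Total-count scaling moved the median of all genes to -0.1469, and relative to it the 7 tested genes kept their signs, from -0.6641 for *Dusp4* to 0.4841 for *Dusp5*.

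The sign of *Pdgfa* turned in 3 fits that left out 1 mouse (range -0.1588 to 0.064) and that of *F3* in 1 (-0.0335 to 0.4964). In the mice whose deposited names begin with 25, 3 Egr1+/+ and Egr1-/- mouse 1, which was assumed to vary like the others, *Pdgfa* was 0.2195 and *Mkx* 0.4451, both turned. What this number stands for is not given in the sources used here. The other Egr1-/- mice carry 26, so within that number no comparison could be made.

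Over all genes, 3 passed in edgeR, 334 in DESeq2 (132 higher, 202 lower), 1 in limma-voom, 0 with upper-quartile scaling, 79 with total counts (12 higher, 67 lower), 552 without the filter (243 higher, 309 lower), 0 with a minimum of 1 CPM in 3 mice, 0 in the mice numbered 25, and 0 to 59 with each mouse left out, 59 without Egr1-/- mouse 1 and 0 without any of the others. The log2 fold change of *Egr1* was -2.19 in DESeq2, -2.39 with total counts and -2.18 without the filter, past the threshold in each, and -2.39 to -1.84 with each mouse left out, where it passed without Egr1-/- mouse 1. Of the 79 related genes, 9 to 16 had an unadjusted p under 0.05 with each mouse left out, 9 without Egr1+/+ mouse 3 and 9 without Egr1-/- mouse 2, and 6 did in the mice numbered 25, where 4.19% of all genes did.

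A replicate block left 0 genes past the threshold, and *Egr1* was -2.14 (edgeR adjusted p = 0.198). Deviations of same-numbered mice correlated at -0.0888, 0.1058 and -0.126, and the numbers were not taken to pair the mice. With 3 mice per genotype, these values cannot tell which mice were littermates. *Scx*, *Mkx* and *Tnmd* had at most 26 counts in a mouse.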
